A study of Mus musculus with 8 samples.

Results

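The genes described here are 9 transcription factor genes that mark the formative and primed states of the epiblast, from which the body of the embryo forms after implantation: Otx2, Pou3f1, Zic2, Zic5, Sox3, Sox4, Foxd3, Tcf15 and Sall2. They were taken by name from the 52636 gene rows of the count table, each symbol matched 1 row, and all 9 were among the 18321 genes with enough counts to be tested. RNA was sequenced from epiblasts of embryonic day 5.5 of genotype Sox2Cre;CRAFR26. In these embryos Sox2Cre, which recombines DNA in the epiblast, acts on a CRAF construct through which 4-hydroxytamoxifen (4OHT) induces ERK, the last kinase of the MAPK cascade; vehicle and 4OHT embryos all carry both alleles. The line was made from targeted embryonic stem cells put into morulas, and 2 clones of it, clone 4 and clone 8, were used. Embryos were held in IVC2 medium with 250 nM 4OHT or with ethanol as vehicle for 4 h, and the layers outside the epiblast were dissected off. The vehicle libraries carry the time label 0 h as well as 4 h of vehicle; they are used here as 4 h controls, and if they were not cultured, every comparison with 4OHT also holds 4 h of culture. Each clone and condition had 2 libraries, each from a pool of 10 epiblasts. Nothing says that the pools of a group came from different litters, so the p-values measure the spread between these pools.

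Naive pluripotent cells of the blastocyst pass through a formative state after implantation and then a primed state, from which the germ layers arise. OTX2 and POU3F1 (OCT6) are the factors best known for opening the enhancers of that transition, and OTX2 later acts in anterior patterning. ZIC2 and ZIC5 are zinc finger proteins of post-implantation epiblast and neural tissue, and the zinc finger protein SALL2 belongs to the spalt family. SOX3 is an X-linked relative of SOX2, SOX4 is a SoxC protein of many progenitors, FOXD3 is a forkhead factor needed to keep the epiblast, and TCF15 is a basic helix-loop-helix factor linked to priming. FGF signalling through ERK is known to drive cells out of naive pluripotency and into this state.

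Depth was 33.3 M to 38.0 M counts (M, mega) in the vehicle libraries and 56.4 M to 72.5 M in the 4OHT libraries, so the ranges of the conditions did not overlap. The ERK-responsive gene Egr1 lay at 5.77 to 18.2 CPM (counts per 1 M, with library sizes scaled by TMM) in vehicle and at 55.4 to 379 CPM after 4OHT. Epiblast identity was visible in Pou5f1, at 435 to 888 CPM in every library. Genes of neighbouring tissues were present too: the 18 visceral endoderm markers, none of which was at 0, summed to 984 to 4790 CPM, and the 12 extraembryonic ectoderm markers, none at 0, to 164 to 728 CPM. In such pools fewer cells of a type and less RNA per cell cannot be told apart. The 4 groups were unlike in both lists. Visceral endoderm markers summed to 1218 and 1660 CPM in vehicle clone 4 and to 4065 and 4790 CPM in 4OHT clone 4, but to 3154 and 3216 CPM in vehicle clone 8 and to 984 and 2305 CPM in 4OHT clone 8. Extraembryonic ectoderm markers summed to 164 and 203 CPM in vehicle clone 8 and to between 456 and 728 CPM in the other 3 groups. The part of either list in the results below was not tested.

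Set against each other per kilobase of exon, the 9 genes fell into a high and a low class. In the 4 vehicle libraries Otx2 was at 33.3 ± 2.33 CPM per kilobase (SD, n = 4), Pou3f1 at 27.0 ± 9.18, Sall2 at 23.8 ± 6.54 and Zic5 at 12.7 ± 3.39. Below a gap came Zic2 at 3.77 ± 1.51, Sox3 at 3.18 ± 1.12, Sox4 at 2.53 ± 1.16, Foxd3 at 1.30 ± 0.959 and Tcf15 at 0.967 ± 0.789 CPM per kilobase (SD, n = 4). The only neighbours in this order whose vehicle libraries did not overlap were Zic5 and Zic2. After 4OHT the same 4 genes led, with Otx2 at 26.5, Sall2 at 23.9, Pou3f1 at 22.2 and Zic5 at 10.7 CPM per kilobase. Pou3f1 and Zic5, now neighbours in the order, did not overlap, as they had not in vehicle. In mean log2 CPM, Otx2 and Sall2 exceeded 90.0% and 90.1% of tested genes, Zic2 and Sox4 each exceeded 54.1%, and Tcf15 exceeded 28.9%. The plot of the levels in each library shows all 9 genes.

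**Figure D1:**
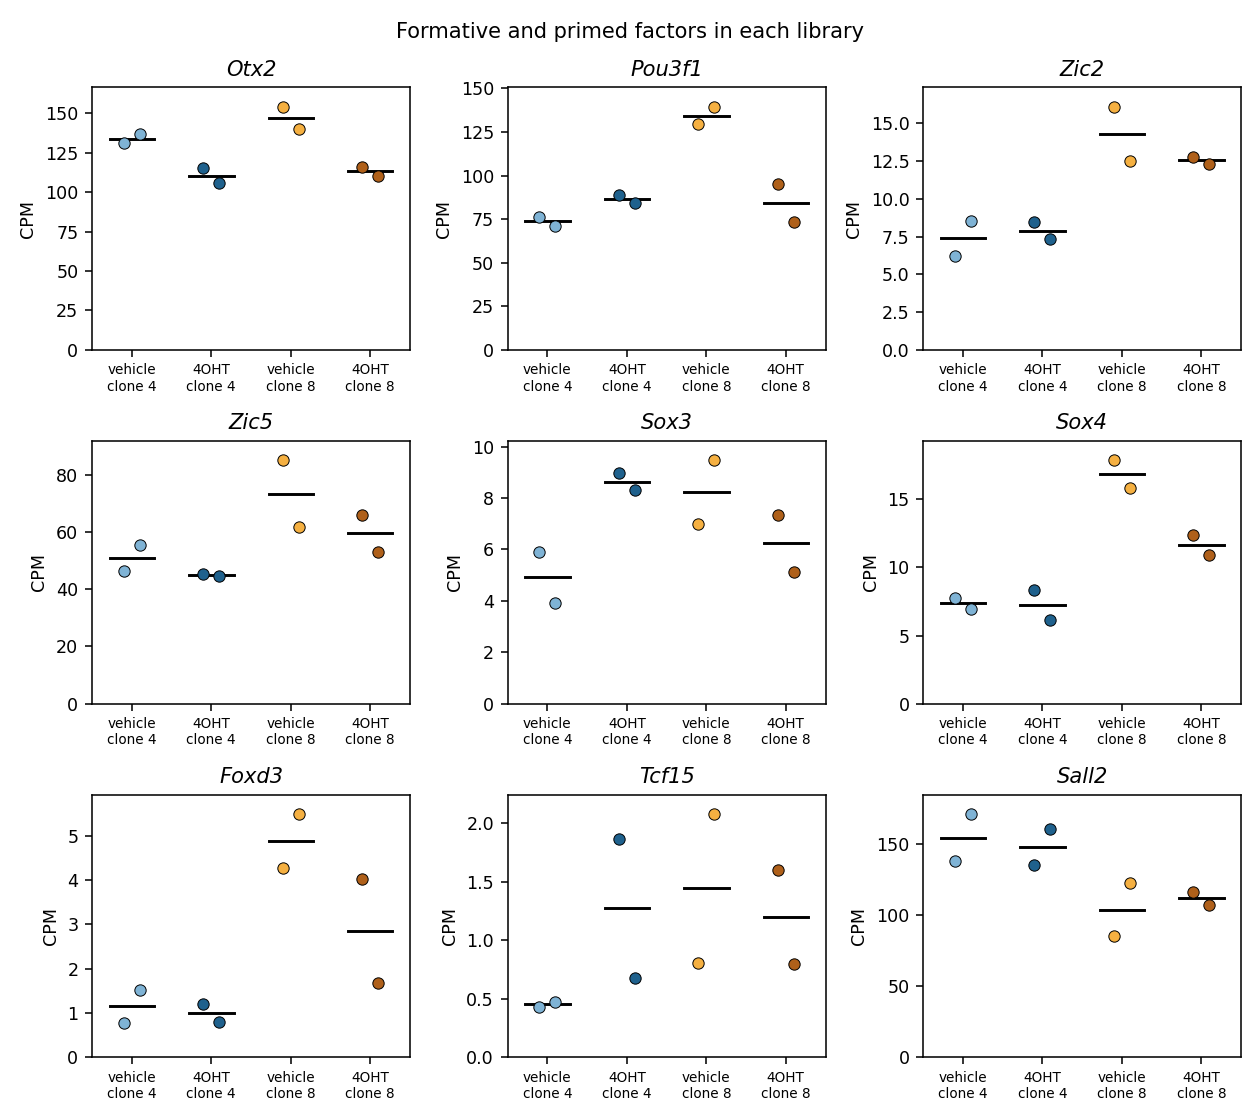
Level of each of the 9 genes in the 8 libraries, as CPM on a linear axis from 0; points are libraries and the bar is the mean of the 2 libraries of a group. Otx2 is lower in all 4 libraries with 4OHT, whereas Pou3f1 is highest in the 2 vehicle libraries of clone 8, at 129 and 140 CPM.

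Over both clones, none of the 9 genes passed the test after 4 h of 4OHT, and Otx2 was the only one whose libraries of the 2 conditions did not overlap. Otx2 (ENSMUSG00000021848) lies on the minus strand of chromosome 14 at chr14:48657677-48673819 of GRCm38. It was at 131 and 137 CPM in vehicle clone 4, 154 and 140 CPM in vehicle clone 8, 115 and 106 CPM in 4OHT clone 4, and 116 and 111 CPM in 4OHT clone 8. Every library with 4OHT was below every vehicle library. The mean was 141 ± 9.85 CPM in vehicle and 112 ± 4.79 CPM with 4OHT (SD, n = 4 each). On the log2 scale the change was -0.33 (SE 0.092), or 0.797-fold. In edgeR's quasi-likelihood test with Benjamini-Hochberg adjustment over all tested genes its adjusted p was 0.159, so Otx2 did not pass the threshold of 0.05. Of all tested genes, 5.58% likewise had all 4OHT libraries below all vehicle libraries. DESeq2 called Otx2 (log2 fold change -0.34, adjusted p = 0.0234), and so did averaging the responses of the clones from the fit of 4 groups (-0.33, adjusted p = 0.0481); over all alternatives its adjusted p ranged from 0.0234 to 0.406 and the fold change from -0.37 to -0.30.

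None of the 9 genes was called in this comparison, in which edgeR called 0.00546% of tested genes (1 of 18321). DESeq2, which called Otx2, called 476 genes higher and 577 lower, and averaging the responses of the clones called 449 and 614. At an unadjusted p under 0.05, 1 of the 9, Otx2, and 3088 of all genes passed. In log2 fold change, 6 of the 9 were negative and 3 positive, with a median of -0.22 against 0.044 for all tested genes. Pou3f1 went from 104 ± 35.3 to 85.4 ± 9.08 CPM (SD, n = 4 each; adjusted p = 0.561, edgeR), and the wide vehicle SD reflects 2 separate pairs of libraries, one for each clone. The neighbours Zic5 and Zic2 had values of -0.24 (adjusted p = 0.406) and -0.047 (0.919, edgeR). Sox4 was at 12.1 ± 5.55 CPM in vehicle and 9.43 ± 2.77 CPM after 4OHT, and Foxd3 at 3.01 ± 2.23 and 1.92 ± 1.44 CPM (SD, n = 4 each). Sall2 had the smallest difference of the 9, at 129 ± 35.5 and 130.0 ± 23.4 CPM (SD, n = 4 each). Sox3 and Tcf15, with fold changes of 0.21 (SE 0.29) and 0.58 (SE 0.55), were the other 2 genes with a positive value. For all but Otx2 the libraries of the 2 conditions overlapped. Without replicate 2 of 4OHT clone 8 the median of the 9 genes was -0.055.

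Within clone 8, Pou3f1 fell after 4OHT, and 8 of the 9 genes had a negative fold change. Pou3f1 (ENSMUSG00000090125) is a gene of 1 exon at chr4:124656807-124660655 on the plus strand, of which 330 bases also belong to the antisense gene Gm2164. Vehicle clone 8 had it at 129 and 140 CPM, and 4OHT clone 8 at 95.2 and 73.6 CPM. The ranges were apart, as they were for 60.0% of all tested genes in this comparison, and the means were 134 ± 7.18 and 84.4 ± 15.3 CPM (SD, n = 2 each). This is -0.67 on the log2 scale (SE 0.14, adjusted p = 0.0178, edgeR), or 0.628-fold. Pou3f1 was thus 1 of 9 members called, and it was called lower; in this comparison 16.6% of all tested genes were called and 8.6% were called lower. The call was lost without replicate 1 of vehicle clone 8 (-0.75, adjusted p = 0.0965), where edgeR called 0 genes in all, without replicate 2 of 4OHT clone 8 (-0.50, adjusted p = 0.0536), and when clone 8 was fitted alone (-0.70, adjusted p = 0.0706). Its fold change ranged from -0.87 to -0.50 over the 8 fits that each leave out 1 library.

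The other members of clone 8 did not pass. Otx2 had a value of -0.38 (SE 0.11) at an adjusted p of 0.0505; it passed with RLE size factors (-0.40, adjusted p = 0.0424), with DESeq2 (-0.40, adjusted p = 0.0201) and without replicate 2 of vehicle clone 8 (-0.48, adjusted p = 0.0487), and its adjusted p over all alternatives ran from 0.0201 to 0.227. Among all tested genes of clone 8, RLE size factors called 1392 higher and 1674 lower, and DESeq2 2080 and 2228. Sox4 was at 17.9 and 15.9 CPM in vehicle and 12.4 and 10.9 CPM after 4OHT, with no overlap (log2 fold change -0.53, SE 0.22, adjusted p = 0.125, edgeR). Foxd3, with 153 and 182 reads in vehicle, was at 4.26 and 5.48 CPM there and at 4.01 and 1.67 CPM after 4OHT (-0.78, SE 0.48, adjusted p = 0.296, edgeR). Both libraries with 4OHT were below vehicle, replicate 1 only just. Zic5 (-0.30), Zic2 (-0.19), Sox3 (-0.40) and Tcf15 (-0.26) overlapped between the conditions. Sall2, with a value of 0.11, was the only one above 0. The median of the 9 was -0.38, beside 0.069 for all tested genes, and it was -0.17 without replicate 2 of 4OHT clone 8.

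In clone 4 the same treatment gave no call among the 9 genes in any setting tried, with 0.0382% of all genes called (7 of 18321). At an unadjusted p under 0.05, 1814 of all 18321 genes and 2 of the 9 passed: Otx2, with -0.28 on the log2 scale (SE 0.11, adjusted p = 0.465), and Sox3, with 0.81 (SE 0.295, adjusted p = 0.389, edgeR). Sox3 (ENSMUSG00000045179), a gene of 1 exon on the X chromosome (chrX:60891366-60893430, minus strand), was at 5.89 and 3.93 CPM in vehicle and 8.97 and 8.30 CPM after 4OHT, without overlap. Pou3f1 was at 76.4 and 71.1 CPM in vehicle and 88.6 and 84.3 CPM after 4OHT, also without overlap (0.23, SE 0.14, adjusted p = 0.693). Tcf15 (ENSMUSG00000068079, chr2:152143561-152149097) rested on 16 and 16 reads in vehicle and 104 and 49 reads after 4OHT, which is 0.428, 0.476, 1.87 and 0.681 CPM (1.48, SE 0.68, adjusted p = 0.529, edgeR). Zic5 was lower in both libraries with 4OHT, at 45.5 and 44.6 against 46.3 and 55.6 CPM. Zic2, Sox4, Foxd3 and Sall2 overlapped, with values of 0.096, -0.028, -0.19 and -0.062. In all, 5 of the 9 did not overlap between the conditions of clone 4, beside 47.5% of all tested genes. The median of the 9 was -0.028, near the -0.005 of all tested genes.

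**Figure D2:**
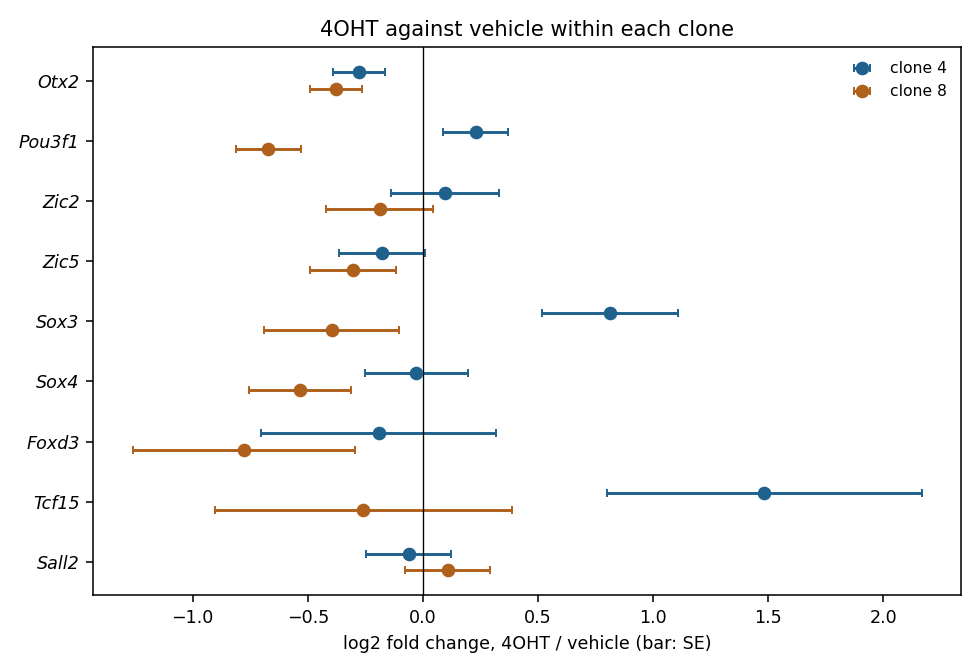
Log2 fold change of 4OHT over vehicle for each gene in clone 4 (blue) and clone 8 (brown), from edgeR's fit of the 4 groups; bars are 1 SE. Otx2 lies below 0 in both clones, and Pou3f1 lies at 0.23 in clone 4 and at -0.67 in clone 8.

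The responses of the clones differed most, relative to their error, in Pou3f1. Its response in clone 8 minus that in clone 4 was -0.90 (SE 0.20), with an adjusted p of 0.0506 in edgeR's interaction test, just short of the threshold. DESeq2 (-0.92, adjusted p = 0.00192), RLE size factors (-0.92, adjusted p = 0.0478), no expression filter (-0.89, adjusted p = 0.00278) and the fit without replicate 1 of 4OHT clone 8 (-1.10, adjusted p = 0.0181) put it past the threshold; over all alternatives the adjusted p ran from 0.00192 to 0.196. For Sox3 the difference was -1.21 (SE 0.42, adjusted p = 0.138), and DESeq2 called it (-1.23, adjusted p = 0.0467). Otx2 had a difference of -0.099 (SE 0.16, adjusted p = 0.747). The other 6 genes had values between -1.74 for Tcf15 and 0.17 for Sall2, none of them called. Of all tested genes, the main edgeR fit called 2.83% in this test. DESeq2 called 774 of 18321 genes higher and 1090 lower, and edgeR with no expression filter 998 and 1116 of 30973. The 4 vehicle libraries belong to separate clones, so the responses share no controls. The visceral endoderm markers had the same signs as Pou3f1: all 18 were higher with 4OHT in clone 4 (median 1.71) and 17 of 18 lower in clone 8 (median -0.79). Of the extraembryonic ectoderm markers, 8 of 12 were higher in clone 4 (median 0.13) and 11 of 12 in clone 8 (median 1.77). The part of either list in the result was not tested.

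Without 4OHT the clones already differed in these genes: 4 of the 9 were higher in clone 8 and called, against 8.37% of all genes called in either direction and 4.06% called higher. The vehicle libraries of clone 8 lay above those of clone 4 for 8 genes and below them for Sall2. With 2 libraries on each side such separation was common, since 58.8% of all tested genes had it. The median log2 difference of the 9 genes was 0.87, beside 0.004 for all tested genes. These are the same vehicle libraries from which each response above was reckoned, so a gene high in vehicle clone 8 is, from the same 2 libraries, more negative in the clone 8 response.

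Pou3f1 was at 129 and 140 CPM in vehicle clone 8 against 76.4 and 71.1 CPM in vehicle clone 4, a log2 difference of 0.87 (SE 0.14, adjusted p = 0.0206, edgeR), or 1.82-fold. On the scale of CPM per kilobase this brought Pou3f1 level with Otx2 in vehicle clone 8, both at 34.9, whereas in vehicle clone 4 it stood, at 19.2, behind Otx2 at 31.7 and Sall2 at 28.4. Foxd3 (ENSMUSG00000067261, chr4:99656299-99658622, plus strand, 1 exon) had the largest difference of the 9 and low counts. It was at 4.26 and 5.48 CPM in clone 8 and 0.776 and 1.52 CPM in clone 4, from 153 and 182 against 29 and 51 reads (2.09, SE 0.51, adjusted p = 0.0418, edgeR), which is 4.26-fold. Sox4 (ENSMUSG00000076431, chr13:28948919-28953713, minus strand, 1 exon) was at 17.9 and 15.9 CPM in clone 8 and 7.76 and 6.97 CPM in clone 4 (1.20, SE 0.23, adjusted p = 0.0238, edgeR), or 2.29-fold. Both clones' libraries were well apart for these 3 genes. Over 2616 bases of its exon Sox4 overlaps the opposite-strand gene Gm26735, and the use of strand in counting is not given in the sources used here.

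Zic2 (ENSMUSG00000061524, chr14:122475435-122479852, plus strand) and Zic5 (ENSMUSG00000041703, chr14:122456795-122465677, minus strand) face away from each other with 9757 bases between them. Zic2 was at 16.1 and 12.5 CPM in vehicle clone 8 and 6.23 and 8.54 CPM in vehicle clone 4 (0.95, SE 0.24, adjusted p = 0.0430, edgeR), or 1.94-fold. Zic5 was at 85.1 and 61.8 CPM in clone 8 and 46.3 and 55.6 CPM in clone 4 (0.53, SE 0.19, adjusted p = 0.113). Both genes were thus on the same side, and only Zic2 passed. Sox3 was at 6.97 and 9.46 CPM in clone 8 (0.74, SE 0.30, adjusted p = 0.153), Tcf15 at 0.808 and 2.08 CPM (1.67, SE 0.69, adjusted p = 0.165), and Otx2 differed by 0.14 (SE 0.11, adjusted p = 0.515, edgeR). Sall2 (ENSMUSG00000049532, chr14:52311172-52328762, minus strand) had the opposite sign, at 85.5 and 122 CPM in clone 8 and 138 and 171 CPM in clone 4 (-0.57, SE 0.185, adjusted p = 0.0865, edgeR).

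These 4 calls were lost in 3 of the fits that leave out 1 vehicle library, while the log2 differences stayed positive. Such a fit leaves 1 library in its group. None of the 9 genes was called without replicate 1 of vehicle clone 4, without replicate 2 of vehicle clone 4 or without replicate 1 of vehicle clone 8. Among all genes those fits called 0, 59 and 0. The adjusted p of Pou3f1 was 0.131, 0.151 and 0.168 there, and its log2 difference 0.93, 0.82 and 0.93. In these 3 fits the log2 difference of Sox4 was 1.11 to 1.28 (adjusted p = 0.139 to 0.199), that of Zic2 0.75 to 1.21 (0.160 to 0.322) and that of Foxd3 1.69 to 2.66 (0.160 to 0.231, edgeR). Foxd3 was also lost without replicate 2 of vehicle clone 8 (1.91, adjusted p = 0.112), and Sall2 was then called lower (-0.84, adjusted p = 0.0366). Leaving out either 4OHT library of clone 4 cost Zic2 (0.95, adjusted p = 0.0736 and 0.0728) and Foxd3 (2.09 in each, adjusted p = 0.0645 and 0.0631) their calls. DESeq2 called Zic5 as higher in clone 8 (0.55, adjusted p = 0.0356) and Sall2 as lower (-0.56, adjusted p = 0.0286). Among all tested genes DESeq2 called 1528 higher and 1536 lower here.

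After 4OHT none of the 9 genes was called between the clones, beside 0.202% of all tested genes (37 of 18321). This comparison was chosen after the data were seen. Pou3f1 was at 88.6 and 84.3 CPM in clone 4 and 95.2 and 73.6 CPM in clone 8 (-0.034, SE 0.14, adjusted p = 0.934, edgeR). Otx2 and Tcf15 overlapped as well, with differences of 0.038 and -0.075. Zic2 (0.67), Zic5 (0.40), Sox4 (0.69) and Foxd3 (1.50, SE 0.50, adjusted p = 0.174) were still higher in both clone 8 libraries, and Sall2 (-0.40) and Sox3 (-0.47) lower. Such separation of 2 against 2 libraries was seen for 47.9% of all tested genes. Foxd3 was called without replicate 2 of 4OHT clone 8 (1.99, adjusted p = 0.0412) and with no expression filter (1.49, adjusted p = 0.0217). With no expression filter, 648 of 30973 genes were called higher in clone 8 and 766 lower. The median difference of the 9 genes was 0.038 after 4OHT, beside 0.018 for all tested genes. Between vehicle libraries the visceral endoderm markers were higher in clone 8 for 18 of 18 genes, and between 4OHT libraries lower for 18 of 18.

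**Figure D3:**
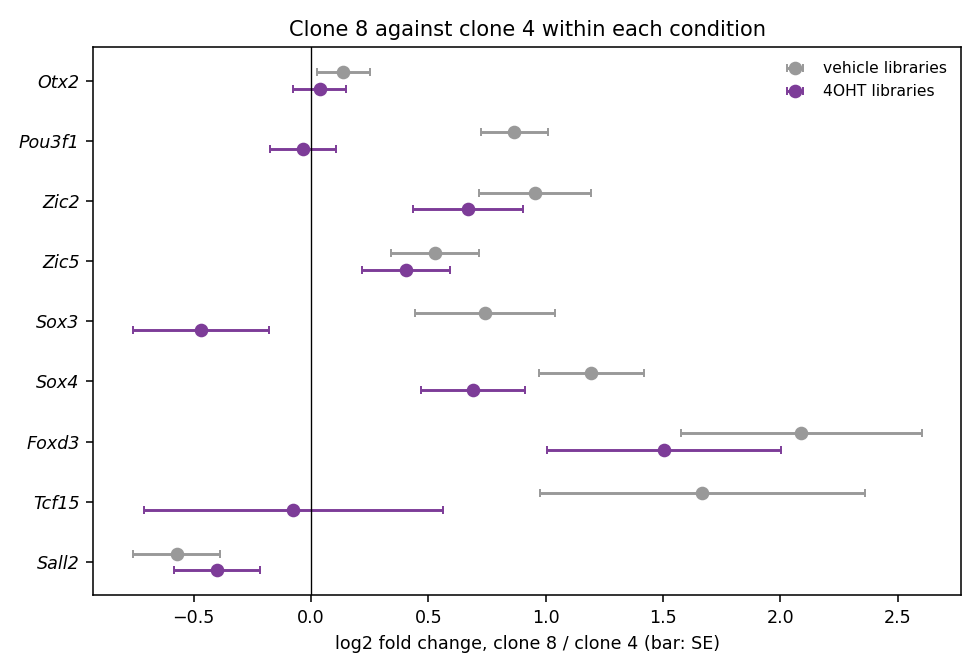
Log2 fold change of clone 8 over clone 4 among vehicle libraries (grey) and among 4OHT libraries (purple), from edgeR's fit of the 4 groups; bars are 1 SE. Pou3f1 moves from 0.87 in vehicle to -0.034 with 4OHT, while Foxd3, Sox4 and Zic2 stay above 0.

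Foxd3, Sox4 and Zic2 had the profiles most alike among the 9 over the 8 libraries. In Euclidean distance between log2 CPM profiles scaled to mean 0 and SD 1, Foxd3 and Sox4 were 1.12 apart, Zic2 and Sox4 1.17, Zic2 and Foxd3 1.23, and Zic2 and Zic5 1.32; Sox4 and Sall2, the farthest pair, were 5.13 apart. Because Foxd3 and Sox4 are the nearest pair and Otx2 is the gene lower in all 4 libraries with 4OHT, the 250 bases before a start site of each are shown, 5′ to 3′ on the gene's strand, from RefSeq on GRCm38.p6. RefSeq's table held 9 start sites for 5 of the 9 genes. The windows are chr4:99656049-99656298 (plus) for Foxd3, chr13:28953700-28953949 (minus) for Sox4 and chr14:48667645-48667894 (minus) for 1 of the starts of Otx2. Capitals mark TGACGTCA, the cyclic AMP response element, in Foxd3 and CCAAT on either strand in Sox4.
Foxd3: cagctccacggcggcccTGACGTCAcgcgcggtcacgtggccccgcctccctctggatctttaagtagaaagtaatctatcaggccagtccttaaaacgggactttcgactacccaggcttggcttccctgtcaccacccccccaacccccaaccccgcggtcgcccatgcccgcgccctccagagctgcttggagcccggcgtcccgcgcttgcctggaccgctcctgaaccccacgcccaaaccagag
Sox4: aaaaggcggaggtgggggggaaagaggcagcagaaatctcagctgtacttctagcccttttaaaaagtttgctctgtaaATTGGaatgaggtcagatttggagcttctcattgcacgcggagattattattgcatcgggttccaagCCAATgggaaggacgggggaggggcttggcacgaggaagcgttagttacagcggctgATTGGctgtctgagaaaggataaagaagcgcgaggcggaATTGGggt
Otx2: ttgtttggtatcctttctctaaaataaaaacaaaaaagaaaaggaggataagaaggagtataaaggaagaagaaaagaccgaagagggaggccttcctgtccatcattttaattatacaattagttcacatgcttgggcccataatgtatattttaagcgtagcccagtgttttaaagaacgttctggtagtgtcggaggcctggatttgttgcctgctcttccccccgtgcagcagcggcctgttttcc
The motifs searched on both strands were those of ETS (CCGGAAG), AP-1 (TGANTCA), OTX (TAATCC), POU (ATGCAAA), SOX (ACAATG) and EGR (GTGGGCG). None of them is in these 3 windows. Of the 6 other windows of the 9, which are not shown, an OTX match on the opposite strand lies 211 to 206 bases before another start of Otx2, and no other of these motifs was found. These motifs are in 6.9%, 6.7%, 6.3%, 4.1%, 10.7% and 7.0% of the 32851 promoters of the same length. TGACGTCA and CCAAT were added after the sequences had been read. The first is in 1.5% of all promoters and lies 233 to 226 bases before the start of Foxd3. CCAAT is in 33.8% of promoters and occurs 4 times before Sox4, 1 of them on the gene's strand. It also occurs once before another start of Otx2 and once before a start of Sall2. These are matches of letters, not sites shown to be bound.

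Outside the 9, the 5 genes whose profile was nearest to the mean scaled profile of the 9 were Prr12 (distance 1.07), Pcnx (1.13), Ldb1 (1.13), Dvl1 (1.15) and Zfp318 (1.15), from 9154 genes of above-median level over the 8 libraries. The gene nearest to Otx2 was Eif3i (0.293) and that nearest to Pou3f1 was Mcl1 (0.331). Sox4 was nearest to Eif4g3 (0.413), Foxd3 to Cnot6l (0.503), Zic5 to Grik3 (0.585), Sall2 to Hyal2 (0.591) and Zic2 to Armcx4 (0.65). For Sox3 and Tcf15 the nearest genes, 2510002D24Rik and Fmr1, were 1.01 and 1.13 away. Each of the 9 was nearer to its nearest gene among these 9154 than to any other of the 9.

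A further list of 13 genes of the formative and primed state, all of them tested, had a median log2 fold change of -0.045 over both clones, with no call, 5 positive values and 8 negative ones. Its largest values were those of Nodal, a TGF-beta ligand of the epiblast, at -0.65 (SE 0.23, adjusted p = 0.213), of Fgf15, at -0.36 (SE 0.14, adjusted p = 0.239), and of the DNA methyltransferase gene Dnmt3a, at -0.27 (SE 0.12, adjusted p = 0.285, edgeR). In clone 8 Rbpj, the DNA-binding partner of Notch, rose (0.54, adjusted p = 0.0307) and the chromatin factor Utf1 fell (-0.44, adjusted p = 0.0320, edgeR), so that 2 of 13 passed, a share near the 16.6% of all tested genes called there. In vehicle, Rbpj was the only gene of the list called between the clones, and it was lower in clone 8 (-0.68, adjusted p = 0.0281). None of the 13 was called in clone 4.

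The 4 core pluripotency factors had negative fold changes in both clones. Pou5f1 was at -0.54 (SE 0.11, adjusted p = 0.117), Sox2 at -0.66 (SE 0.14, adjusted p = 0.119) and Nanog at -1.11 (SE 0.29, adjusted p = 0.142, edgeR) over both clones, with no call. In clone 8 Pou5f1 (-0.62, adjusted p = 0.0210) and Sox2 (-0.79, adjusted p = 0.0202, edgeR) fell, in a comparison that called 8.6% of all tested genes lower. Sox2 was at 32.7 and 30.3 CPM in vehicle clone 8 and 15.1 and 15.4 CPM in vehicle clone 4 (1.04, adjusted p = 0.0208, edgeR). It was therefore higher in vehicle clone 8, as Pou3f1, Sox4, Zic2 and Foxd3 were. In summed level the 4 core factors were at 1220 to 1578 CPM in vehicle and 1056 to 1163 CPM after 4OHT, without overlap. Taken singly, only Pou5f1 of them was apart between the conditions, while Sox2, Nanog and Sall4 overlapped. The 9 formative and primed factors summed to 413 to 509 CPM and 376 to 432 CPM, with overlap, as the plot of summed levels shows.

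**Figure D4:**
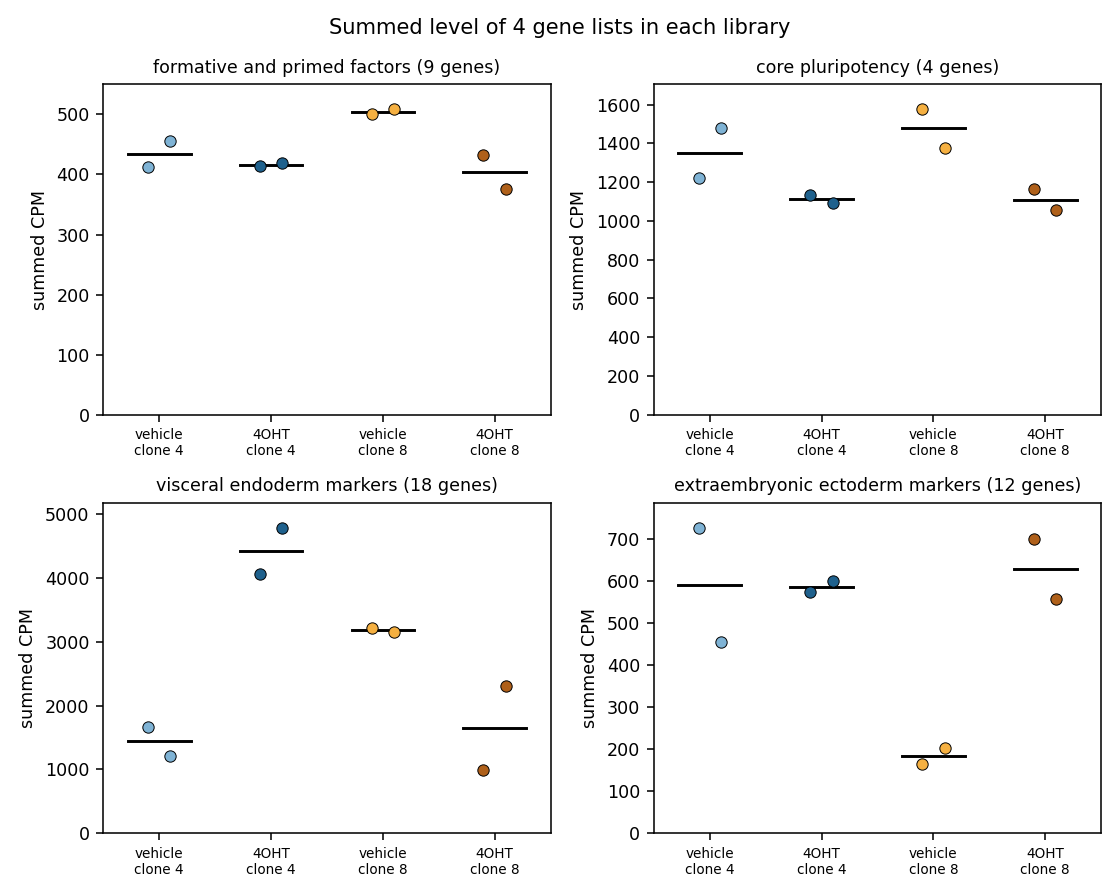
Summed CPM of the 9 formative and primed factors, the 4 core pluripotency factors, the 18 visceral endoderm markers and the 12 extraembryonic ectoderm markers in each library, on linear axes from 0; bars are the means of 2 libraries. Vehicle clone 8 is highest in the panel of the 9 factors, at 500.2 to 509 CPM, and lowest in that of extraembryonic ectoderm. In the panel of visceral endoderm it is at 3154 to 3216 CPM, below 4OHT clone 4 at 4065 to 4790 CPM.

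Of 12 naive pluripotency genes, 11 were tested, with a median of 0.62 and no call over both clones. In clone 8 Esrrb (2.04, adjusted p = 0.00215), Klf5 (1.90, adjusted p = 0.00929) and Zfp42 (1.19, adjusted p = 0.0110) rose, and in clone 4 Tbx3 did (2.89, adjusted p = 0.0414, edgeR). Tbx3 had a value of -0.43 in clone 8 (adjusted p = 0.387, edgeR). The responses of the clones differed for Tbx3 (-3.31, adjusted p = 0.0230) and Esrrb (1.85, adjusted p = 0.0122, edgeR). Visceral endoderm markers likewise were higher with 4OHT in clone 4, for 18 of 18 genes. Among all tested genes, 16.6% were called in clone 8, 0.0382% in clone 4 and 2.83% in the difference of responses. Esrrb and Zfp42 were also lower in vehicle clone 8 than in vehicle clone 4 (-1.82 and -1.27, adjusted p = 0.00587 and 0.0198, edgeR). Esrrb and Klf5 are also transcribed in extraembryonic ectoderm, whose markers were lowest in vehicle clone 8. The part of that tissue and of visceral endoderm in these values was not tested. Among 18 relatives of the 9 genes, 12 were tested; the SoxC gene Sox12 fell in clone 8 (-2.19, SE 0.33, adjusted p = 0.00890) and was higher in vehicle clone 8 than in vehicle clone 4 (1.87, SE 0.32, adjusted p = 0.0213, edgeR), the same directions as its relative Sox4. Of 22 known ERK targets and feedback genes, 20 had a positive value over both clones, with a median of 0.50 and no call. In clone 8, 10 of the 22 were called higher and 2 lower, beside 1465 and 1576 of all 18321 tested genes. Their median was 0.74 in clone 8, with 19 of 22 positive. In clone 4 it was 0.15, with 16 of 22 positive and no call. Neural ectoderm and primitive streak genes gave no call in these comparisons.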

How the data were processed

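The deposited values are raw counts of reads by Ensembl gene in the 8 libraries, not normalized, as its whole numbers and unequal column totals show. Per the submitters' processing notes, bcl2fastq 2.19.1, STAR 2.5.3a and the build mm10 were used. The counting program, annotation release and use of strand are not given in the sources used here, so genes that overlap another gene are uncertain. Libraries were made from 7 ng of RNA with a low-input kit, per the labels' protocols.

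Symbols matched 52403 of 52636 identifiers; the 233 others held at most 0.0325% of the counts of a library. Positions and exonic lengths are those of GENCODE M21 (GRCm38). Counts were tested with edgeR 4.0.16 in R 4.3.3 (filterByExpr with a minimum count of 10, TMM, glmQLFit, glmQLFTest), adjusted by the Benjamini-Hochberg method over 18321 genes and called at an adjusted p under 0.05. Values over both clones came from a fit with clone and treatment as terms, all others from a fit of the 4 groups. An SE is the log2 fold change divided by the square root of F. The planned description of the legacy option of glmQLFit was wrong for this version; its default (on) was kept after counts of calls had been seen with it on and off. The prior count of log2 CPM was 2. The script was tested on simulated data with 1 dispersion for all genes. At a log2 change of 1 either way, 20 of 95 changed genes were recovered over both clones, 2 in clone 4 and 7 in clone 8. At a change of 2 the counts were 94, 60 and 69 of 97. A gene without a call may therefore still have changed by a log2 value of 1, and within a clone also by 2.

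All 9 genes were to be named, and of other lists the 3 largest changes over both clones and any called gene. The genes and lists were chosen with earlier results of these data known. A further gene of the lists is not reported here and was left out of their counts. Alternatives were RLE size factors, no filter, DESeq2 1.42.0, the replicate number as a block, no clone term, the mean of the within-clone responses, and leaving out each library; the fits of 1 clone alone and the comparison of clones after 4OHT were chosen after seeing the data. Chi-square values per degree of freedom between replicates were 20.3 to 67.4, so no library was treated as a repeat of another.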

Additional observations from a re-analysis of the deposited data

Results flagged for a closer look

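The response of Pou3f1 differed in sign between the clones, which is why it stands here: both libraries with 4OHT lay above both vehicle libraries in clone 4 and below them in clone 8. The log2 response of clone 8 minus that of clone 4 was -0.90 (SE 0.20), with an adjusted p of 0.0506 in edgeR's interaction test, so the difference did not pass the threshold. The visceral endoderm markers had the same signs as Pou3f1, higher with 4OHT for 18 of 18 genes in clone 4 and lower for 17 of 18 in clone 8. Extraembryonic ectoderm markers were higher for 8 of 12 genes in clone 4 and for 11 of 12 in clone 8. The part of either list in the result was not tested. Of 18 values examined for a library standing apart within a condition (9 genes in 2 conditions, 4 libraries each), 0 met Dixon's criterion. Chance gives about 0.9 if the 4 libraries are draws from 1 population. They are 2 from each clone, and a difference between the clones can hide a library that stands apart, so the 0 shows little.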

How the results depend on the processing

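Depth limits Foxd3 and Tcf15 most, with 29 to 250 and 16 to 104 reads per library, and with 2 libraries in a group 1 library can end a call. Counts of called genes depended strongly on the setting. Over both clones 1 gene was called, but 1337 with no expression filter, 1053 with DESeq2 and 1063 as the average of both clones' responses. In clone 4 there were 7, but 728 with no filter, 468 with DESeq2, 16 with the legacy option off and 220 for clone 4 alone. In clone 8 there were 3041, and 0 for clone 8 alone. The difference of the responses had 519, but 2114 with no filter and 1864 with DESeq2. The clones in vehicle had 1534, but 2901 with no filter and 3064 with DESeq2; after 4OHT they had 37, but 1414 with no filter, 1015 with DESeq2 and 709 with the legacy option off. Leaving out each library gave 0 to 1 over both clones, 0 to 267 in clone 4, 0 to 3179 in clone 8, 0 to 1205 for the difference, 0 to 2518 between vehicle clones and 0 to 704 between 4OHT clones. The cause was not tested. A replicate block gave 0 calls in clone 4, 2986 in clone 8 and 18 between 4OHT clones, and ended the calls of Zic2 (0.95, adjusted p = 0.0528) and Foxd3 (2.08, adjusted p = 0.0515, edgeR) between vehicle clones; Foxd3 was also lost with the legacy option off (2.10, adjusted p = 0.0542). Same-numbered libraries did not deviate together (r = 0.095 in clone 4 and -0.010 in clone 8 over 18321 genes), so the numbers were not taken to pair them.

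Some fold changes changed sign with 1 library left out, none of them a called one. Over both clones they ran from -0.18 to 0.051 for Zic2, -0.053 to 0.43 for Sox3 and -0.098 to 0.10 for Sall2. In clone 4 they ran from -0.11 to 0.34 for Zic2, -0.27 to 0.18 for Sox4, -0.60 to 0.37 for Foxd3 and -0.21 to 0.10 for Sall2, and in clone 8 from -0.85 to 0.53 for Tcf15 and -0.16 to 0.35 for Sall2. For the difference they ran from -0.38 to 0.095 for Zic5 and -0.095 to 0.41 for Sall2. Between 4OHT clones they ran from -0.029 to 0.095 for Otx2, -0.23 to 0.13 for Pou3f1 and -0.66 to 0.81 for Tcf15, which was 0.001 with the legacy option off. Otx2 kept its negative sign in both clones, and Pou3f1 its negative sign in clone 8 and positive sign in clone 4, in every alternative run.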
